A study of Homo sapiens with 18 samples.

Results

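Aminoacyl-tRNA synthetases are the enzymes that load each transfer RNA with its amino acid. They were taken as the genes with a single current symbol made of 1 letter, ARS and an optional 1, 2, A or B, together with EPRS1, and where several probe sets measure a gene the one with the highest mean was used. The rule found 32 genes among the 11232 genes with a single symbol, and all 32 were among the 10940 that passed the filter on low values. Of these, 17 encode cytosolic enzymes (AARS1, CARS1, EPRS1, FARSA, FARSB, GARS1, HARS1, IARS1, KARS1, LARS1, NARS1, RARS1, SARS1, TARS1, VARS1, WARS1 and YARS1). The other 15 carry the suffix 2 and encode mitochondrial enzymes (AARS2, CARS2, EARS2, FARS2, HARS2, IARS2, LARS2, MARS2, NARS2, PARS2, RARS2, SARS2, VARS2, WARS2 and YARS2). GARS1 and KARS1 each make enzyme for both compartments and were counted as cytosolic. Another 5 probe sets list a synthetase together with a further symbol and were not analysed here.

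Gene expression was measured on 18 Affymetrix 3′ arrays of total RNA from 2 human melanoma lines, A375M2 (a metastatic derivative of A375, which is the cell line named in the characteristics) and C32. All cells had been transduced with a lentivirus, and there were 6 groups of 3 arrays. In A375M2 the groups were short hairpin RNAs (shRNAs) against FHL2 (shFHL2), full-length PMEL, shRNAs against NFYA (shNFYA) and GFP. In C32 they were shFHL2 and GFP. FHL2 is a LIM-domain adaptor protein, PMEL forms the fibrils of melanosomes, and NFYA belongs to NF-Y, the factor that binds CCAAT. The FHL2 shRNAs were a pool of 3 constructs. Transduced A375M2 cells were drug-selected and sorted for high GFP, so the arms are selected populations. Of the 2 GFP vectors described, the one behind the GFP arrays is not stated. A non-targeting shRNA arm is not among the groups, and how the C32 and NFYA arms were selected is not given.

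Synthetases fall into class I and class II by the fold of their catalytic domain, and several cytosolic ones are joined in a multi-synthetase complex, while the mitochondrial set is nuclear-encoded and charges the transfer RNAs of the organelle's own translation. When amino acids run short, uncharged transfer RNA activates the kinase GCN2, eIF2 is phosphorylated and the transcription factor ATF4 is translated more. ATF4, paired with C/EBP proteins, binds C/EBP-ATF response elements (CAREs) at genes for amino acid synthesis and transport and at a number of cytosolic synthetase genes.

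RefSeq promoter windows (GRCh38.p14, 250 bases before to 50 after the annotated start) were at hand for 27 of the 32 genes, in 36 windows; AARS2, LARS1, VARS1, VARS2 and YARS1 had none. The CARE letters TGATGNAA, searched on both strands, occurred in a window of 7 of the 27 genes (25.9%), against 1217 of 27305 genes with a window (4.46%). They stood in 6 of 14 cytosolic genes (42.9%) and in 1 of 13 mitochondrial genes (7.69%). The 7 stretches are shown because 5 of the 6 cytosolic genes in question rose in both A375M2 shRNA arms and fell in C32 shFHL2. Capitals mark the CARE letters or their reverse complement TTNCATCA, and each stretch is written 5′ to 3′ on the strand of its gene.
TARS1: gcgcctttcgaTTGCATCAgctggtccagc
GARS1: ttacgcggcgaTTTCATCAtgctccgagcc
IARS1: ttttcagcgcgTTGCATCAcctccgtgcgc
CARS1: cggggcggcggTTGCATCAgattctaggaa
AARS1: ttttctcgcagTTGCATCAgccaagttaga
NARS1: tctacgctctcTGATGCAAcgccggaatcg
YARS2: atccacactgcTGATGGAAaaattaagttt
The stretches lie at chr5:33440956-33440985 on the plus strand (TARS1), chr7:30594834-30594863 on the plus strand (GARS1) and chr9:92293692-92293721 on the minus strand (IARS1). The others are on the minus strand, at chr11:3057407-3057436 (CARS1), chr16:70289675-70289704 (AARS1), chr18:57621804-57621833 (NARS1) and chr12:32756076-32756105 (YARS2). Relative to the annotated start of its window, the first capital is at position 2 in TARS1, -33 in GARS1, -13 in IARS1, -2 in CARS1, -187 in AARS1, 14 in NARS1 and -197 in YARS2. TARS1 and GARS1 have 2 windows each. The start used for them lies downstream of the first base of the annotated gene, chr5:33440696 for TARS1 and chr7:30594735 for GARS1. TARS1, IARS1, CARS1 and AARS1 share the same 8 letters on the same strand, and NARS1 has their reverse complement. A match describes the letters only and is not a binding site.

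The histidine enzymes HARS1 and HARS2 are neighbours that are read away from each other, and the 84 bases between their annotated spans are shown because the 2 genes moved in opposite directions in the A375M2 shRNA arms and in the same direction in C32. They lie at chr5:140691371-140691454 and are written on the plus strand, the strand of HARS2.
HARS1-HARS2: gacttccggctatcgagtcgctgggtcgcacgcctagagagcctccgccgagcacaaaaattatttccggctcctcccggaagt
The stretch holds neither the CARE letters nor CCAAT on either strand.

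Values are deposited log2 signals, so a difference of 1 is a 2-fold change, and levels are compared between groups for 1 probe set at a time. The third C32 GFP array was almost the average of the other 2 C32 GFP arrays: its deviation from that average had an SD of 0.00703 (16631 probe sets), where the other 17 arrays had 0.105 to 0.162. It was left out, and C32 GFP values are those of 2 arrays. Replicate 3 of A375M2 GFP and of A375M2 PMEL departed from replicates 1 and 2 of their groups as mirror images (correlation -0.998 over 14992 probe sets), so that 1 can be computed from the other; both were kept. Outside the PMEL arm, leaving both out ended 3 calls: CARS2 in A375M2 shFHL2 (adjusted p = 0.0999 by limma) and in shNFYA (0.0816), and LARS1 in the difference between the lines (0.074). Exact low values were shared within sets of arrays: replicates 1 and 2 of A375M2 GFP and PMEL had 0 in common with any shRNA or C32 array. A375M2 GFP replicate 3 had 0 in common with replicates 1 and 2 of its group or with any shRNA array. It shared 537 with PMEL replicate 3 and 221 with C32 GFP replicate 3. Array set therefore cannot be told apart from the arm where the A375M2 shRNA arms or C32 GFP are set against A375M2 GFP, and C32 shFHL2 against C32 GFP and A375M2 shFHL2 against shNFYA lie within a set. The 18S control probe sets averaged 14.18 in A375M2 shFHL2, 11.08 in PMEL, 14.19 in shNFYA and 12.52 in A375M2 GFP, and 13.94 in C32 shFHL2 and 13.28 in C32 GFP. The poly-A spike-in probe sets averaged 5.96 in C32 shFHL2 against 9.37 in C32 GFP, and lay between 6.57 and 7.15 in the A375M2 groups. The 3′ minus 5′ difference of actin, a sign of RNA integrity, was 1.07 in A375M2 shFHL2, 0.74 in PMEL and 1.19 in shNFYA against 0.61 in A375M2 GFP, and 0.87 in C32 shFHL2 against 1.08 in C32 GFP. The part of these differences in the results was not tested. FHL2 averaged 7.17 in A375M2 shFHL2 against 11.21 in A375M2 GFP, and 5.83 in C32 shFHL2 against 11.08 in C32 GFP. PMEL averaged 8.95 in the PMEL arm against 5.57 in A375M2 GFP, and NFYA 7.52 in shNFYA against 9.59. Of the melanocyte markers, SOX10 was between 11.79 and 12.88 in all groups, while MLANA was between 2.18 and 2.38 and TYR between 2.37 and 4.44 in A375M2, against 12.25 and 14.00 for MLANA and 12.54 and 13.48 for TYR in C32 shFHL2 and C32 GFP. All 7 melanocyte markers tested were lower in A375M2 shFHL2 and in C32 shFHL2, and 6 of 7 in shNFYA, each against its GFP. MLANA averaged 2.18 in both A375M2 shRNA arms against 2.38 in A375M2 GFP, all under the low-value limit of log2 4. It passed the filter only through C32. Over all genes 44.3% were lower in A375M2 shFHL2, 30.3% in C32 shFHL2 and 43.3% in shNFYA. Of markers of other cell types, 4 of 4 keratinocyte and epithelial genes were higher and 4 of 5 fibroblast genes lower in both A375M2 shRNA arms. The fibroblast gene COL1A2 averaged 2.44 in both arms against 3.92 in A375M2 GFP, also under the low-value limit. Over all genes 41.1% were higher in A375M2 shFHL2 and 43.5% in shNFYA. KRT8 averaged 4.73 in A375M2 shFHL2, 4.78 in shNFYA and 3.40 in A375M2 GFP, and KRT14 averaged 2.97, 5.08 and 2.49. KRT14 passed the filter on low values only through shNFYA, and KRT8 only through the A375M2 shRNA arms. The leukocyte gene LYZ averaged 9.45 in shFHL2 and 9.40 in shNFYA, against 3.74 in A375M2 GFP, with PTPRC at 2.16, 2.16 and 2.27. In C32 shFHL2 LYZ averaged 5.69, PTPRC 7.80 and the endothelial gene KDR 7.83, against 3.70, 8.63 and 10.18 in C32 GFP. The part of these markers in the results was not tested. For A375M2 the series describes 3 separate experiments without naming the NFYA arm, and for C32 nothing says that cultures were separate, so p-values may measure technical spread.

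In A375M2 shFHL2 cells, 10 of the 17 cytosolic synthetases rose and 12 of the 15 mitochondrial ones fell. The threonine, serine, tryptophan and cysteine enzymes TARS1, SARS1, WARS1 and CARS1 rose by more than 3-fold, and the mitochondrial alanine enzyme AARS2 was 7.25-fold lower. In all, 28 of 32 synthetases were called at an adjusted p under 0.05 (limma), a share close to the 85.4% of all genes tested. Of these, 12 were higher and 16 lower, where 41.1% and 44.3% of all genes were. The arrays of the groups did not overlap for 29 of the 32, against 86.9% of all genes. Changes of 2-fold or more were 7 higher and 7 lower, 14 of 32, against 15.2%, 16.2% and 31.4% of all genes. The compartments had opposite signs: the median log2 change was 0.77 over the cytosolic and -0.42 over the mitochondrial genes, against -0.04 over all genes tested. In bulk RNA, fewer cells expressing a gene and less of its RNA per cell cannot be told apart.

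TARS1 read 13.88, 13.85 and 13.86 in A375M2 shFHL2 arrays, against 11.93, 12.01 and 11.90 in A375M2 GFP arrays. The log2 change was 1.92 (SE 0.033, adjusted p = 6.46e-19 by limma), or 3.78-fold. SARS1, the seryl enzyme, read 13.39, 13.34 and 13.38 in shFHL2, against 11.61, 11.45 and 11.50 in GFP. Every shFHL2 array of both genes stood above every GFP array by more than 1 log2 unit. WARS1, the tryptophanyl enzyme and also an interferon-gamma-inducible gene, read 12.70, 12.78 and 12.69 in shFHL2, against 10.88, 10.88 and 10.90 in GFP. CARS1, the cysteinyl enzyme, read 13.39, 13.42 and 13.37 in shFHL2, against 11.77, 11.68 and 11.79 in GFP. GARS1, the glycyl enzyme, read 13.94, 13.88 and 13.91 in shFHL2, against 12.61, 12.47 and 12.59 in GFP. The groups did not overlap for any of these 5 genes, and the spread within a group was a small part of the gap. Log2 changes were 1.85 for SARS1 (SE 0.050, adjusted p = 2.84e-16), 1.84 for WARS1 (SE 0.036, adjusted p = 3.59e-18), 1.65 for CARS1 (SE 0.054, adjusted p = 5.02e-15) and 1.35 for GARS1 (SE 0.041, adjusted p = 1.87e-15). The other cytosolic rises were 1.18 for YARS1 (tyrosine), 1.02 for EPRS1 (glutamate and proline in 1 chain), 0.80 for IARS1 (isoleucine), 0.77 for AARS1 (alanine) and 0.46 for HARS1 (histidine).

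The cytosolic genes that fell in A375M2 shFHL2 were VARS1 (valine), both subunits of the phenylalanine enzyme, FARSA and FARSB, and, by a small amount, KARS1 (lysine). VARS1 read 8.64, 8.67 and 8.67 in shFHL2, against 10.50, 10.41 and 10.54 in GFP, a log2 change of -1.82 (SE 0.058, adjusted p = 2.95e-15). The changes of FARSA and FARSB were -1.17 and -1.08, and that of KARS1 was -0.15. For FARSA the size depends on the probe set, since its other one, which averaged 9.63, gave -0.27 here. LARS1, NARS1 and RARS1, which charge leucine, asparagine and arginine, did not pass the test, with log2 changes of 0.23, -0.03 and 0.01.

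Among the mitochondrial genes, AARS2 read 7.12, 7.22 and 7.32 in A375M2 shFHL2, against 10.17, 10.00 and 10.08 in A375M2 GFP, a log2 change of -2.86 (SE 0.080, adjusted p = 5.59e-16). EARS2 (glutamate) read 7.89, 8.04 and 7.91 in shFHL2, against 9.54, 9.57 and 9.45 in GFP, a change of -1.57 (SE 0.069, adjusted p = 2.99e-13). Both were lower in all 3 shFHL2 arrays than in any GFP array. VARS2 (valine) read 8.97, 8.99 and 8.92 in shFHL2, against 10.41, 10.27 and 10.29 in GFP, a change of -1.36 (SE 0.059, adjusted p = 2.60e-13). SARS2 (serine) read 4.20, 4.32 and 4.32 in shFHL2, against 5.48, 5.60 and 5.59 in GFP, a change of -1.28 (SE 0.11, adjusted p = 2.48e-09). SARS2 lies near the low-value limit of log2 4 in shFHL2. The other 8 mitochondrial falls were smaller, between -0.20 (CARS2) and -0.63 (IARS2). YARS2 (tyrosine) and WARS2 (tryptophan) rose by 0.37 and 0.44, and PARS2 (proline) did not pass, at 0.07. Centring each array on its median moved the median of all genes in this comparison to 0.10. The split of called synthetases was then 15 higher and 13 lower, and CARS2, KARS1 and RARS2 lost their calls. The split of all called genes moved as well, from 4497 higher and 4844 lower to 5137 and 4232.

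**Figure D1:**
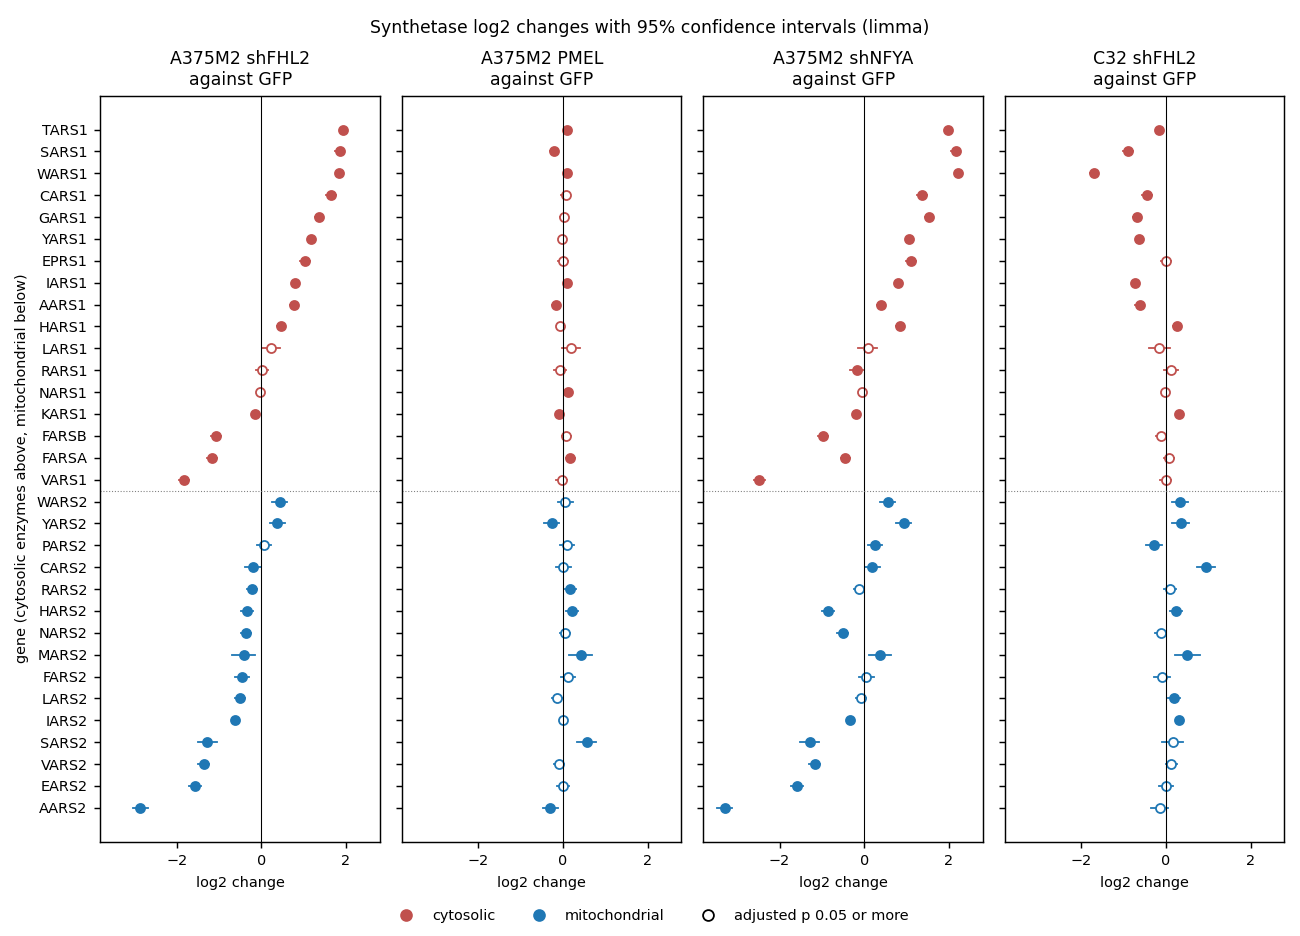
Log2 change (x axis, deposited log2 scale) of the 32 synthetases in 4 comparisons with GFP, with 95% confidence intervals from limma; red, cytosolic; blue, mitochondrial; open points did not pass adjusted p under 0.05. The values run from AARS2 at -2.86 to TARS1 at 1.92 in A375M2 shFHL2 and from AARS2 at -3.30 to WARS1 at 2.21 in shNFYA, and in the PMEL arm none reaches 1.

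The arms can be read within 14 pairs of enzymes for the same amino acid. FARS2 was counted with FARSA and again with FARSB, and EPRS1 was paired with EARS2 for glutamate but not with PARS2 for proline. In A375M2 shFHL2 the change of the cytosolic gene was above that of its mitochondrial partner in 11 of 14 pairs. In 6 pairs the cytosolic gene rose while its partner fell: alanine, cysteine, glutamate, histidine, isoleucine and serine. The cysteine pair rests on CARS2 at -0.20, whose call was lost without both replicate 3 arrays (adjusted p = 0.0999 by limma), with arrays centred on their medians (0.48) and with quantile normalization (0.298). The alanine pair had the widest gap, with AARS1 at 0.77 and AARS2 at -2.86, a difference of 3.63 log2. For tryptophan and tyrosine both partners rose. For valine and for phenylalanine, with either subunit, both fell, and the cytosolic gene fell further, by 1.82 for VARS1 against 1.36 for VARS2.

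The A375M2 shNFYA arm shares its GFP arrays with the shFHL2 arm, so its values are given beside those above and not as a repeat of them. In shNFYA cells 10 cytosolic synthetases rose and 5 fell, and 5 mitochondrial ones rose and 7 fell. That made 27 of 32 called (86.8% of all genes), 15 higher (43.5%) and 12 lower (43.3%). The arrays did not overlap for 26 (87.1% of all genes), and 7 were 2-fold higher (17.3%) and 5 2-fold lower (18.5%), 12 in all (35.8%). The cytosolic median was 0.80 and the mitochondrial median -0.12, against 0.00 over all genes. With arrays centred on their medians, the median of all genes was 0.13 and the split was 17 higher and 10 lower. The split of all called genes moved as well, from 4762 higher and 4739 lower to 5341 and 4220.

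WARS1 read 13.03, 13.08 and 13.17 in shNFYA arrays, against 10.88, 10.88 and 10.90 in A375M2 GFP arrays, a log2 change of 2.21 (SE 0.036, adjusted p = 1.77e-19) or 4.62-fold. SARS1 read 13.60, 13.65 and 13.77 in shNFYA, against 11.61, 11.45 and 11.50 in GFP, a change of 2.16 (SE 0.050, adjusted p = 2.30e-17). TARS1 read 13.89, 13.92 and 13.95 in shNFYA, against 11.93, 12.01 and 11.90 in GFP, a change of 1.97 (SE 0.033, adjusted p = 2.66e-19). These 3 had the largest rises here, without overlap between the groups. GARS1 read 14.03, 14.08 and 14.13 in shNFYA, against 12.61, 12.47 and 12.59 in GFP, and CARS1 read 13.24, 13.16 and 12.95, against 11.77, 11.68 and 11.79. Their log2 changes were 1.52 and 1.37. On the other side AARS2 read 6.66, 6.70 and 6.98 in shNFYA, against 10.17, 10.00 and 10.08 in GFP, which is 9.85-fold lower (log2 change -3.30, SE 0.080, adjusted p = 4.95e-17). VARS1 read 7.93, 7.96 and 8.14 in shNFYA, against 10.50, 10.41 and 10.54 in GFP, a change of -2.48 (SE 0.058, adjusted p = 2.67e-17). Replicate 3 was the highest of the shNFYA arrays for AARS2 and VARS1 and still lay more than 2 log2 units below GFP. EARS2 averaged 7.93 in shNFYA, against 9.52 in GFP (log2 change -1.59, SE 0.069, adjusted p = 1.95e-13). SARS2 read 4.32, 4.22 and 4.27 in shNFYA, against 5.48, 5.60 and 5.59 in GFP, and VARS2 averaged 9.15, against 10.32. The changes of SARS2 and VARS2 were -1.29 and -1.18. MARS2, the mitochondrial methionine enzyme, and PARS2 were called higher at 0.37 and 0.24.

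**Figure D2:**
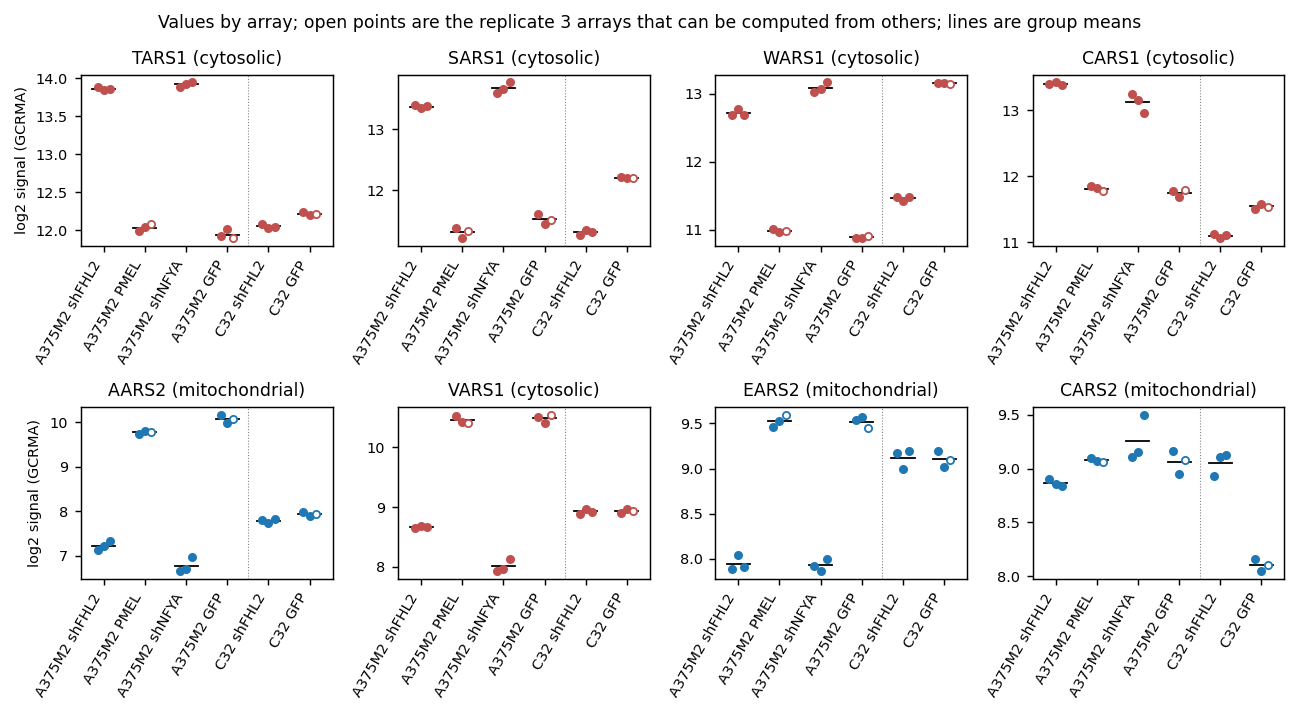
Deposited log2 signal (y axis, a separate scale for each gene) of 8 synthetases on each of the 18 arrays, with a line at the group mean; open points are replicate 3 of A375M2 PMEL, A375M2 GFP and C32 GFP, and the mean line of C32 GFP leaves out its open point. TARS1, SARS1, WARS1 and CARS1 are higher in both A375M2 shRNA arms than in A375M2 GFP, AARS2, VARS1 and EARS2 are lower there, and CARS2 is higher in C32 shFHL2 than in C32 GFP.

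The 2 shRNA arms of A375M2 lie in the same array set and were also set against each other. Of 32 synthetases, 20 differed between shFHL2 and shNFYA (70.1% of all genes), 8 higher in shFHL2 (31.8%) and 12 lower (38.3%), and none differed by 2-fold, against 10.4% of all genes (6.37% higher and 4.02% lower). The medians were 0.00 for the cytosolic and -0.17 for the mitochondrial genes, against -0.03 over all genes. VARS1 read 8.64, 8.67 and 8.67 in shFHL2, against 7.93, 7.96 and 8.14 in shNFYA, a log2 difference of 0.65 (SE 0.058, adjusted p = 1.71e-08). HARS2 read 10.06, 9.90 and 9.90 in shFHL2, against 9.46, 9.40 and 9.42 in shNFYA, a difference of 0.53. AARS2, AARS1 and CARS1 were the next largest on this side, at 0.44, 0.38 and 0.28. MARS2 read 6.18, 6.64 and 6.44 in shFHL2, against 7.32, 7.29 and 7.04 in shNFYA, a difference of -0.79 (SE 0.13, adjusted p = 2.14e-05). FARSA read 10.11, 10.08 and 10.00 in shFHL2, against 10.68, 10.83 and 10.83 in shNFYA, a difference of -0.72. FARSB, its partner subunit, did not pass, at -0.11. YARS2, FARS2 and LARS2 were lower in shFHL2 by 0.55, 0.52 and 0.42 on the log2 scale. The groups did not overlap for these 10 genes or for 24 of the 32 in all, against 74% of all genes.

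In the PMEL arm of A375M2, 14 synthetases were called (39.9% of all genes), 9 higher (22.1%) and 5 lower (17.8%). None reached 2-fold, which 2.14% of all genes did (0.521% higher and 1.62% lower). The arrays did not overlap for 15 of the 32, against 49.8% of all genes. The cytosolic median was 0.03, the mitochondrial median 0.06 and the median of all genes 0.02. The count rests on the replicate 3 arrays of PMEL and GFP: without both, 5 synthetases were called, SARS2, HARS2 and NARS1 higher and AARS2 and SARS1 lower. In that fit 3250 of the 10940 genes tested were called, 1834 higher and 1416 lower. SARS2 read 6.30, 5.98 and 6.08 in PMEL arrays, against 5.48, 5.60 and 5.59 in GFP arrays, a log2 change of 0.57 (SE 0.11, adjusted p = 3.80e-04), and 0.60 without both replicate 3 arrays. This was the largest change in the arm, and its groups did not overlap. MARS2 read 7.03, 7.42 and 7.34 in PMEL, against 6.91, 6.86 and 6.77 in GFP (log2 change 0.42, adjusted p = 0.0129), and without both replicate 3 arrays its adjusted p was 0.125. HARS2, FARSA and NARS1 had changes of 0.22, 0.18 and 0.11. AARS2 read 9.75, 9.82 and 9.79 in PMEL, against 10.17, 10.00 and 10.08 in GFP, a change of -0.30 (SE 0.080, adjusted p = 0.00707). YARS2, SARS1, AARS1 and KARS1 had changes of -0.26, -0.21, -0.16 and -0.09, and of these SARS1 alone kept its call without both replicate 3 arrays.

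In C32 the FHL2 shRNAs went with the opposite pattern: 8 cytosolic synthetases fell and 2 rose, while 7 mitochondrial ones rose and 1 fell. WARS1 fell most, 3.24-fold, and CARS2 rose most, 1.93-fold. In all 18 of 32 were called (62.6% of all genes), 9 higher (32.2%) and 9 lower (30.3%), and WARS1 alone passed 2-fold, against 8.56% of all genes (3.52% higher and 5.04% lower). The arrays did not overlap for 26, against 74.6% of all genes. The cytosolic median was -0.15 and the mitochondrial median 0.17, with 0.00 over all genes.

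WARS1 read 11.48, 11.41 and 11.48 in C32 shFHL2 arrays, against 13.16 and 13.15 in C32 GFP arrays, a log2 change of -1.70 (SE 0.040, adjusted p = 6.52e-16). SARS1 read 11.27, 11.35 and 11.32 in C32 shFHL2, against 12.22 and 12.19 in C32 GFP, a change of -0.90 (SE 0.055, adjusted p = 2.15e-10). IARS1 read 12.97, 12.95 and 13.04 in C32 shFHL2, against 13.70 and 13.70 in C32 GFP, a change of -0.72. The shFHL2 arrays were below both GFP arrays for all 3. GARS1 read 12.29, 12.42 and 12.28 in C32 shFHL2, against 13.02 and 12.99 in C32 GFP, and YARS1 read 10.14, 10.14 and 10.18, against 10.77 and 10.80. Their changes were -0.68 and -0.63. AARS1, CARS1 and TARS1 had smaller falls, of -0.62, -0.44 and -0.16. HARS1 and KARS1 rose, by 0.27 and 0.31. The remaining 7 cytosolic genes did not pass, EPRS1, VARS1, FARSA and FARSB among them, with changes between -0.15 and 0.11.

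CARS2 read 8.93, 9.10 and 9.12 in C32 shFHL2 arrays, against 8.16 and 8.05 in C32 GFP arrays, a log2 change of 0.95 (SE 0.096, adjusted p = 1.25e-07). MARS2 read 8.50, 8.49 and 8.64 in C32 shFHL2, against 7.89 and 8.19 in C32 GFP, a change of 0.51 (SE 0.14, adjusted p = 0.00433). The call of MARS2 depends on 1 array, since without C32 GFP replicate 1 its change was 0.36 with an adjusted p of 0.0875. YARS2 read 10.22, 9.97 and 10.17 in C32 shFHL2, against 9.71 and 9.82 in C32 GFP, and WARS2 averaged 8.82, against 8.48. IARS2, the mitochondrial isoleucine enzyme, read 13.52, 13.45 and 13.55 in C32 shFHL2, against 13.20 and 13.19 in C32 GFP. The changes were 0.35 for YARS2, 0.33 for WARS2 and 0.31 for IARS2, and the groups overlapped for none of the 3. HARS2 and LARS2 rose by 0.24 and 0.19, and PARS2 was the 1 mitochondrial gene that fell, by 0.28. AARS2 and EARS2, the 2 with the largest mitochondrial falls in A375M2, did not pass in C32, with changes of -0.15 and 0.01. In 4 pairs, cysteine, isoleucine, tryptophan and tyrosine, the cytosolic gene fell while its mitochondrial partner rose.

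**Figure D3:**
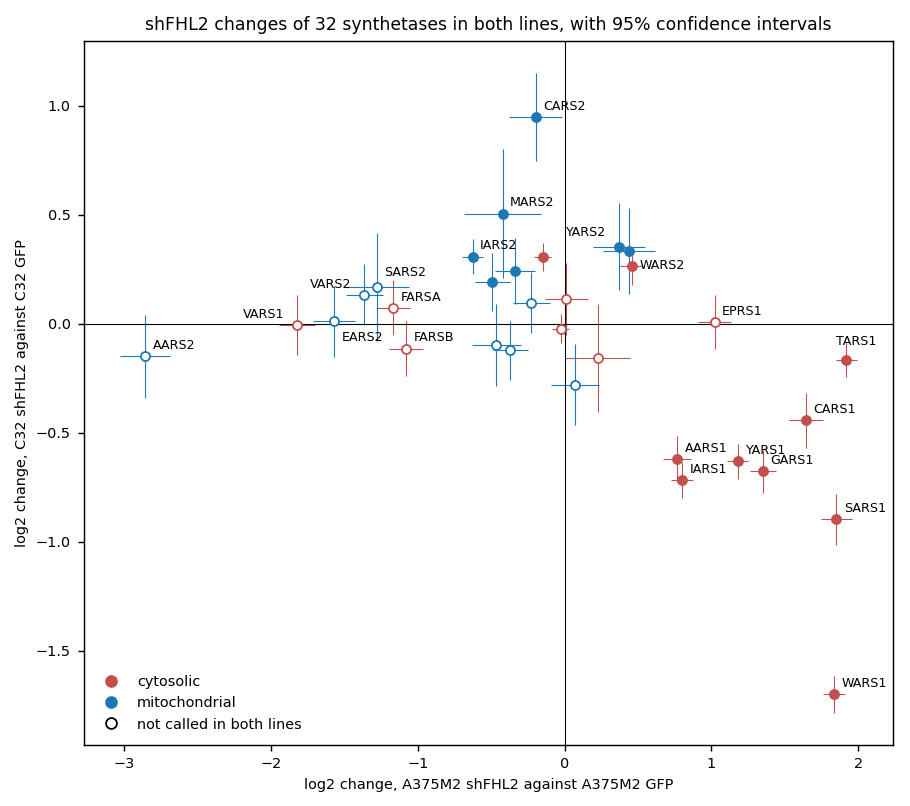
Log2 change of each synthetase in A375M2 shFHL2 against A375M2 GFP (x axis) and in C32 shFHL2 against C32 GFP (y axis), with 95% confidence intervals; the axes share no arrays, and open points were not called in both lines. The 8 genes at the lower right rose in A375M2, between 0.77 (AARS1) and 1.92 (TARS1), and fell in C32, between -0.16 (TARS1) and -1.70 (WARS1).

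The 2 lines share no arrays in these comparisons, and the difference of the shFHL2 change, C32 minus A375M2, was tested as an interaction. It was called for 28 of 32 synthetases (80.2% of all genes), 16 higher in C32 (42.1%) and 12 lower (38.1%). Of these, 7 were higher and 9 lower by 2-fold or more, against 17.2% and 16.7% of all genes, or 16 in all against 34%. The median difference was -1.02 over the cytosolic and 0.69 over the mitochondrial genes, against 0.06 over all genes. Both calls opposed each other for 14 genes. How many of all genes had opposed or shared calls was not counted. Among all genes, 41.1% were higher and 44.3% lower in A375M2 shFHL2, and 32.2% and 30.3% in C32 shFHL2. AARS1, CARS1, GARS1, IARS1, SARS1, TARS1, WARS1 and YARS1 rose in A375M2 and fell in C32, and all 8 are cytosolic. CARS2, HARS2, IARS2, KARS1, LARS2 and MARS2 fell in A375M2 and rose in C32, and all but KARS1 are mitochondrial; with arrays centred on their medians, CARS2 and KARS1 were no longer called in A375M2, nor was CARS2 without both replicate 3 arrays. HARS1, WARS2 and YARS2 rose in both lines, and no synthetase fell in both. The widest differences were -3.53 for WARS1 (SE 0.054, adjusted p = 4.78e-19), -2.75 for SARS1 (SE 0.074), -2.09 for CARS1 (SE 0.081), -2.08 for TARS1 (SE 0.050) and -2.03 for GARS1 (SE 0.062). On the other side they were 2.71 for AARS2 (SE 0.12, adjusted p = 8e-13), 1.82 for VARS1 (SE 0.086), 1.58 for EARS2 (SE 0.10), 1.50 for VARS2 (SE 0.088) and 1.45 for SARS2 (SE 0.16). For these last 5 the change in C32 alone did not pass. SARS2 averaged 4.41 in C32 shFHL2 and 4.24 in C32 GFP, close to the low-value limit in both, so a fall there could hardly have been measured. The difference did not pass for NARS1, RARS1, WARS2 and YARS2.

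**Figure D4:**
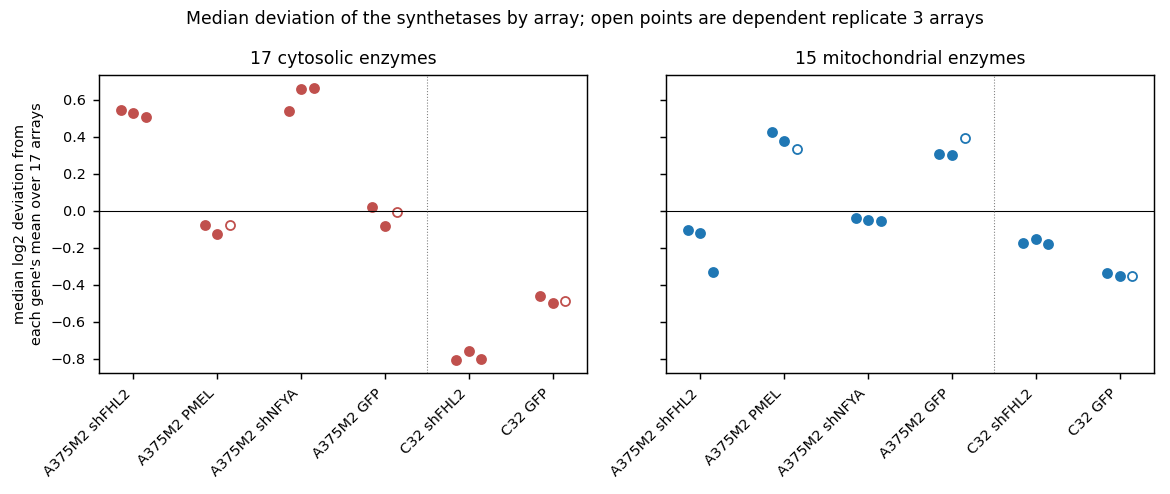
Median over the cytosolic (left) and mitochondrial (right) synthetases of each gene's log2 deviation from its own mean over 17 arrays, for each array in the 6 groups; open points are replicate 3 of A375M2 PMEL, A375M2 GFP and C32 GFP. The A375M2 shFHL2 arrays lie at 0.51 to 0.54 in the cytosolic panel, against -0.08 to 0.02 for A375M2 GFP, and the C32 shFHL2 arrays at -0.81 to -0.76, against -0.50 to -0.46 for C32 GFP.

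Read array by array, the median deviation of the mitochondrial genes was -0.11, -0.12 and -0.33 in A375M2 shFHL2, against 0.31, 0.30 and 0.39 in A375M2 GFP. In C32 it was -0.18, -0.15 and -0.18 in shFHL2, against -0.34 and -0.35 in the GFP arrays used. The array medians of the arms did not overlap with those of GFP in either line, in opposite directions.

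The lines already differed under GFP. Of 32 synthetases, 31 differed between C32 GFP and A375M2 GFP (85.9% of all genes), with 7 higher in C32 (38.7%) and 24 lower (47.2%). The arrays did not overlap for any of the 32 (89.9% of all genes did not), and 2 were 2-fold higher (18.3%) and 9 2-fold lower (24.8%), 11 in all (43.1%). The medians were -0.55 over the cytosolic and -0.66 over the mitochondrial genes, against -0.10 over all genes. WARS1 read 13.16 and 13.15 in C32 GFP arrays, against 10.88, 10.88 and 10.90 in A375M2 GFP arrays, a log2 difference of 2.27 (SE 0.040, adjusted p = 5.16e-19). MARS2 read 7.89 and 8.19 in C32 GFP, against 6.91, 6.86 and 6.77 in A375M2 GFP, a difference of 1.19. SARS1, GARS1 and IARS1 were higher in C32 by 0.69, 0.45 and 0.40. The same C32 GFP arrays serve as the control of C32 shFHL2. FARSA read 8.39 and 8.50 in C32 GFP, against 11.26, 11.19 and 11.24 in A375M2 GFP, a difference of -2.79 (SE 0.059, adjusted p = 7.20e-18). HARS2 read 7.70 and 7.76 in C32 GFP, against 10.37, 10.18 and 10.32 in A375M2 GFP, a difference of -2.56. AARS2, PARS2 and VARS1 were lower in C32 by 2.14, 1.64 and 1.55 on the log2 scale. Their partners FARSB and HARS1 had differences of -0.60 and -1.05. The other probe set of FARSA gave -1.84, and that of FARSB, which averaged 3.57, gave 1.20. Centring each array on its median moved the median of all genes to 0.10, the split to 7 higher and 21 lower, and AARS1 to 0.01; AARS1, CARS1 and NARS1 then lost their calls. The split of all called genes moved as well, from 4229 higher and 5165 lower to 4927 and 4474.

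The cytosolic genes divide by a list of synthetases described as ATF4 targets, of which 12 were measured. In A375M2 shFHL2, 9 of the 12 rose and VARS1 fell, with a median of 1.10, where 41.1% of all genes were called higher and 44.3% lower. In shNFYA, 9 rose and VARS1 fell, with a median of 1.08, where 43.5% of all genes were higher and 43.3% lower. In C32 shFHL2, 8 fell and 0 rose by limma, with a median of -0.53, where 32.2% of all genes were higher and 30.3% lower; all 8 are the genes named above as rising in A375M2. Of the 5 cytosolic genes outside the list, HARS1 rose and FARSA, FARSB and KARS1 fell in A375M2 shFHL2, and HARS1 and KARS1 rose in C32 shFHL2. Both classes of synthetase held rises and falls in A375M2 shFHL2: of 7 class I cytosolic genes 4 rose and 1 fell, and of 9 class II genes 5 rose and 3 fell. Among the 5 measured enzymes of the multi-synthetase complex, EPRS1 and IARS1 rose and KARS1 fell. AIMP1, a scaffold protein of that complex, rose by 0.26 in A375M2 shFHL2, by 0.29 in shNFYA and by 0.28 in C32 shFHL2.

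Set against the CARE letters, 5 of the 6 cytosolic genes that hold them rose in A375M2 shFHL2, 5 rose in shNFYA and 5 fell in C32 shFHL2, and NARS1 was not called in any of the 3. Over all genes 41.1% were higher in A375M2 shFHL2 and 43.5% in shNFYA, and 30.3% were lower in C32 shFHL2. Of the 8 cytosolic genes with a window but without the letters, 4 rose and 3 fell in A375M2 shFHL2, and 2 rose and 2 fell in C32 shFHL2, where 44.3% of all genes were lower in A375M2 shFHL2 and 32.2% higher in C32 shFHL2. SARS1 and WARS1, with the largest falls in C32, are among these 8. CCAAT, the pentamer that NF-Y binds, was found on either strand in 14 of 27 synthetases (51.9%) against 39.7% of all genes with a window. In shNFYA, 5 of the 6 cytosolic genes with CCAAT rose and 0 fell, with 4 of 8 rising and 4 falling among those without. Of the 8 mitochondrial genes with CCAAT, 4 rose and 3 fell. Of all genes, 43.5% were higher and 43.3% lower in shNFYA. The cytosolic split was not particular to shNFYA. In A375M2 shFHL2, 5 rose and 0 fell with CCAAT, and 4 rose and 3 fell without. In C32 shFHL2, 0 rose and 5 fell with CCAAT, and 2 rose and 2 fell without. AARS1, CARS1, IARS1, NARS1 and TARS1 hold both CCAAT and the CARE letters, so the counts for CCAAT and for CARE rest largely on the same genes.

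The same comparisons were read for other genes of the amino acid response. Of 24 genes on a list of ATF4 amino acid response genes, 21 rose and 2 fell in A375M2 shFHL2 (median 2.05), and 22 rose and 2 fell in shNFYA (median 2.02). CHAC1, counted as a rise in both arms, averaged 6.95 in A375M2 shFHL2 against 3.33 in A375M2 GFP. It averaged 2.67 in PMEL, 2.39 in C32 GFP and 2.45 in C32 shFHL2. CHAC1 passed the filter on low values only through the A375M2 shRNA arms, so its rise there was fixed by the filter. In C32 shFHL2, 2 rose and 18 fell (median -0.50), and in the PMEL arm 5 rose and 7 fell (median -0.01). Called higher and lower among all genes were 41.1% and 44.3% in A375M2 shFHL2, and 43.5% and 43.3% in shNFYA. The same shares were 32.2% and 30.3% in C32 shFHL2, and 22.1% and 17.8% in the PMEL arm. ASNS, which makes asparagine, changed by 3.82 in A375M2 shFHL2 (adjusted p = 2.91e-22), by 3.51 in shNFYA and by -2.70 in C32 shFHL2 (adjusted p = 9.41e-19). PHGDH, the first enzyme of serine synthesis, and MTHFD2 of mitochondrial folate metabolism rose by 2.75 and 2.68 in A375M2 shFHL2. In C32 the 2 other genes with the smallest adjusted p were the stress gene NUPR1 at -5.93 and the serine hydroxymethyltransferase SHMT2 at -1.01. ATF4 itself rose by 1.93 in A375M2 shFHL2 and fell by 0.46 in C32 shFHL2; it was named after its values were seen. The difference between the lines was lower in C32 for 23 of the 24 genes, against 38.1% of all genes. CHAC1 is among the 23, and its C32 groups both lay under the low-value limit of log2 4.

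Of 10 measured amino acid transporters, 8 rose and 2 fell in A375M2 shFHL2 and 1 rose and 8 fell in C32 shFHL2. For these and the lists below, the shares over all genes were 41.1% higher and 44.3% lower in A375M2 shFHL2. They were 32.2% higher and 30.3% lower in C32 shFHL2. SLC38A1, SLC7A1 and SLC7A5 rose by 2.50, 2.03 and 1.99 in A375M2 shFHL2, and the cystine carrier SLC7A11, its partner SLC3A2 and SLC1A4 fell by 3.98, 1.64 and 1.50 on the log2 scale in C32 shFHL2. The mitochondrial translation factors and amidotransferase subunits were divided in A375M2 shFHL2, where 6 of 14 rose and 6 fell (median -0.02). In C32 shFHL2, 10 rose and 2 fell (median 0.40). GFM1 and TUFM, elongation factors of the organelle, and GATB fell by 1.17, 0.73 and 0.91 in A375M2 shFHL2. In C32 shFHL2 GATB fell by 0.87 while MTIF2 and TSFM rose by 0.41 and 0.67. Of the GCN2 arm, 4 of 8 genes rose and 4 fell in A375M2 shFHL2. Of 5 measured cytosolic elongation factors, 2 rose and 1 fell in A375M2 shFHL2 and 3 rose and 1 fell in C32 shFHL2. In A375M2 shFHL2 the rises among mitochondrial translation, GCN2 arm and elongation factor genes were near the share over all genes. Of 5 measured genes of transfer RNA end processing and editing, 3 rose and 1 fell in A375M2 shFHL2 and 3 rose and 0 fell in C32 shFHL2 by limma. WARS1 was also set beside 5 measured interferon-gamma genes, of which 3 rose and 1 fell in A375M2 shFHL2 (GBP2 at -1.82, IRF1 at 2.18) and 4 fell in C32 shFHL2.

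**Figure D5:**
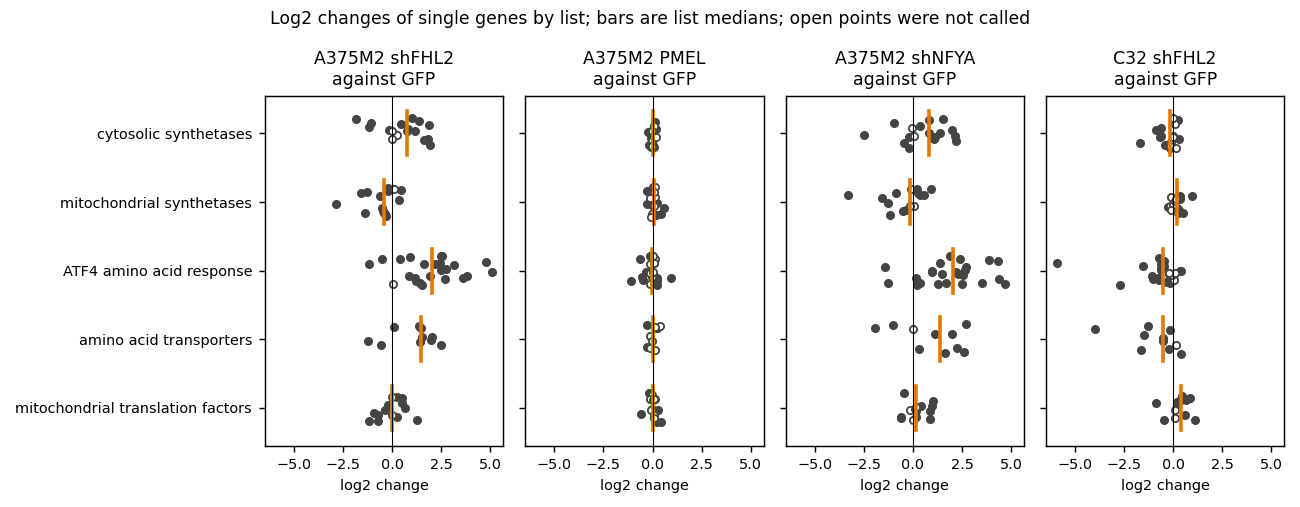
Log2 change (x axis) of each measured gene in 5 lists, 1 point a gene, in 4 comparisons with GFP; bars are list medians, open points were not called, and vertical scatter has no meaning. The medians of the ATF4 amino acid response list are 2.05 in A375M2 shFHL2, 2.02 in shNFYA and -0.50 in C32 shFHL2, with -0.01 in PMEL.

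Of the 32 genes, 16 were measured by 1 probe set. For the others, 20 further probe sets could be read, and 17 of them had the sign of the chosen probe set in A375M2 shFHL2, 16 in shNFYA and 14 in C32 shFHL2. Where they differed in these comparisons, at least 1 of the 2 values was under 0.5. Between the lines 19 had the same sign, and the exception was FARSB, with -0.60 and 1.20. FARSA had -0.45 in shNFYA by the chosen probe set and 0.14 by the other. LARS1 was the least settled: its probe sets gave -0.70, -0.14, 0.23 and 0.53 in A375M2 shFHL2. SARS1, called lower in shFHL2 than in shNFYA at -0.30, had 0.65 there by its other probe set. All 3 probe sets of CARS1 (1.88, 1.65 and 2.14) and both of SARS1 (1.85 and 1.95) and WARS1 (1.90 and 1.84) were higher in A375M2 shFHL2 than in GFP, and both of AARS2 were lower (-2.08 and -2.86).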

How the data were processed

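Total RNA from A375M2 and C32 cells was measured on 18 arrays in 6 groups, taken from the labels. The deposited values are log2 signals; the submitters' processing notes name GCRMA, without a version. Filters on the arrays were not stated. The table held 23416 probe sets, 0 missing values and 0 unmatched columns, with log2 values from 0.53 to 16.72. Of the probe sets 58 were controls, 20264 had a single symbol (20254 updated through Entrez gene ID), 995 several and 2099 none; the first and the last 2 kinds were left out of the gene tests.

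A probe set was kept if 3 or more of the 18 arrays had a log2 value of at least 4, and the one with the highest mean stood for its gene, which left 10940 genes. Group means were fitted over 17 arrays with limma 3.58.1 in R 4.3.3 (lmFit, eBayes with an intensity trend, 11 residual degrees of freedom), with Benjamini-Hochberg adjustment over all genes of a comparison. Genes with an adjusted p below 0.05 are the called ones. The median SE of a log2 change was 0.071 within A375M2, 0.080 in C32 and between the lines and 0.11 for the interaction, and the number of arrays limits this precision. The pipeline was tested on simulated data. Promoter letters were counted in RefSeq windows; plots used matplotlib 3.10.9 in Python 3.11.15.

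The members and gene lists were chosen with earlier results of these data known. Log2 changes were given for up to 5 synthetases each way with the largest change among called genes without overlap of arrays, with SE and adjusted p for part of them. Group averages were given for FHL2, PMEL and NFYA as the check of the labels. In a described list, log2 changes were given for up to 3 genes with the smallest adjusted p. Members that did not pass were named where 5 or fewer. The other synthetases given by value complete the account of the members. Replicate numbers do not pair the samples: same-numbered arrays of A375M2 shFHL2 and GFP deviated together with correlations of 0.05, 0.06 and -0.01, and those of shNFYA and GFP with -0.12, 0.00 and 0.04. Each result was recomputed with other thresholds, scalings, floors and filters, another choice of probe set, other variance models, a replicate block, and with single arrays removed.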

Additional observations from a re-analysis of the deposited data

Results flagged for a closer look

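The shFHL2 change differed between C32 and A375M2, by the interaction term of the limma fit, for 28 of the 32 synthetases, where 80.2% of all genes differed. The 5 members with the most positive difference (C32 minus A375M2, log2) were AARS2 at 2.71, VARS1 at 1.82, EARS2 at 1.58, VARS2 at 1.50 and SARS2 at 1.45; SARS2 was close to the low-value limit of log2 4 in both C32 groups. The most negative were WARS1 at -3.53, SARS1 at -2.75, CARS1 at -2.09, TARS1 at -2.08 and GARS1 at -2.03. In A375M2 the arms being compared lie in different array sets and in C32 in the same set, so line and array set cannot be told apart in these differences. The groups hold 3 arrays or fewer, so no single array was examined as an extreme of its group.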

How the results depend on the processing

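There were 31 alternative settings, of which the 2-fold threshold was applied to counts only. Over the rest, 2076 of 2096 recomputed values of the 70 named results kept direction and call, 20 kept direction and lost the call, and 0 reversed. The named results were chosen for large changes, and many settings leave the compared group means as they are, so few reversals could occur. Of the 8 results with a lost call, 6 are in the PMEL arm; the others are MARS2 and WARS2 in C32 shFHL2, WARS2 only when its 2 groups were fitted alone (adjusted p = 0.0583). At 2-fold or more the count of called synthetases was 14 in A375M2 shFHL2, 0 in PMEL, 12 in shNFYA, 1 in C32 shFHL2, 0 for shFHL2 against shNFYA, 11 between the lines and 16 for the interaction; the higher threshold shows its own cause. In PMEL the count was 5 without both replicate 3 arrays and 8 to 15 with single arrays left out, 8 without GFP replicate 3 or PMEL replicate 3. Without both, 3250 of the 10940 genes tested were called in PMEL. The median cytosolic minus the median mitochondrial change used 1 probe set a gene. With the probe set of largest variance it was 1.15 in shNFYA (0.93 as reported), 0.47 between the lines (0.11) and -2.04 for the interaction (-1.70). With the mean of all probe sets it was 1.05 in shNFYA, 0.47 between the lines, -1.88 for the interaction and 0.044 in PMEL (-0.03). The cause was not tested. With single arrays left out it ran from -1.81 to -1.59 for the interaction; leaving out a C32 GFP array leaves 1, assumed to vary like the other groups.

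With the replicate block the called synthetases were 29 in A375M2 shFHL2, 11 in PMEL, 27 in shNFYA, 18 in C32 shFHL2, 20 for shFHL2 against shNFYA, 31 between the lines and 27 for the interaction, against 28, 14, 27, 18, 20, 31 and 28 without it. In PMEL and GFP same-numbered arrays deviated with correlations of -0.246, -0.175 and -0.999.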
